A study of Sus scrofa with 20 samples.

Results

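The late finishing phase of pig growth, from 120 to 180 days post natum (dpn), was examined in the longissimus muscle of pigs of the Landrace (LR) and Lantang (LT) breeds. These ages were represented by 4 of the 20 libraries of the study, 1 for each breed and age, and the members were chosen by the breed and age on their labels. Landrace is a lean, fast-growing breed and Lantang is a Chinese breed of the obese type. No treatment or transgene distinguished the groups, and the boars of both breeds had been castrated in early life. Each library was made from RNA of 3 pigs pooled in equal amounts, so that animals cannot be told apart and no group had a replicate. The 4 groups were LR at 120 dpn, LR at 180 dpn, LT at 120 dpn and LT at 180 dpn.

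Digital gene expression (DGE) counts transcripts by a short tag. NlaIII cuts the cDNA at CATG, the piece nearest the poly(A) tail is kept, and 21 bases are read, CATG and the 17 bases that follow it. The number of copies of a tag measures how abundant its transcript was among the polyadenylated RNA of the muscle. The tags were not matched to transcripts here, so they are given by sequence, and neither gene names nor cell type markers could be used to describe them or to check the tissue. In bulk muscle, fewer cells of a type and less RNA per cell cannot be told apart.

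Longissimus is a back muscle made mainly of fast, glycolytic fibres. After birth its fibres no longer increase in number but grow in girth, the perinatal forms of contractile proteins give way to adult forms, and the RNA becomes dominated by a small set of contractile and glycolytic transcripts. During finishing, lean growth slows while fat is laid down between the fibres, earlier and more strongly in obese than in lean breeds.

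The libraries held 3430462 (LR, 120 dpn), 3617816 (LR, 180 dpn), 3282841 (LT, 120 dpn) and 2932964 (LT, 180 dpn) clean tags. At these depths 3 counts, taken as the limit of detection, equalled 0.829 to 1.02 TPM, the copies of a tag per 1000000 clean tags of its library. Both LR libraries stood apart in 1 feature of their tags, and its cause was not tested. Tags with a further CATG among the 17 bases made up 0.116% and 0.224% of their clean tags, against 2.83% and 2.63% in the LT libraries. The ages were therefore compared within each breed. The 100 most abundant tags took 53.6% and 50.3% of the LR libraries at 120 and 180 dpn, and 43.2% and 38.4% of the LT libraries.

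Few tags were called in a common direction in LR and LT between 120 and 180 dpn. In LR 3363 tags were higher at 180 dpn (3.16% of the 106299 tested) and 2227 were lower (2.1%). In LT 1825 tags were higher (1.3% of 139956) and 831 were lower (0.594%). A tag was called when an exact binomial test of its counts gave a p below 0.009 and a false discovery rate below 0.02, and its TPM differed by more than 0.5 on the log2 scale. Such a test compares a pair of libraries, not ages, and had no replicate check. Of the 513 tags called in both breeds, 87 were higher at 180 dpn in both, 113 were lower in both and 313 went in opposite directions, so 39.0% shared a direction. The 200 shared tags were 3.58% of the LR calls and 7.53% of the LT calls. Over all 47751 tags found in both breeds, 0.182% were called higher in both, 0.237% lower in both and 0.655% in opposite directions. Among the 9573 tags with 20 or more counts in each breed, 14.4% were called higher and 15.2% lower in LR, and 8.32% higher and 5.32% lower in LT. Of these 0.877% were called higher in both, 1.17% lower in both and 3.07% in opposite directions.

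With the breeds as the only replicates of an age, no tag passed the test. edgeR's quasi-likelihood test with breed as a block, on the 9573 tags that had 20 or more counts in each breed, called 0 tags at an adjusted p below 0.05. At an unadjusted p below 0.05 it listed 217 tags (2.27%), 112 higher and 105 lower at 180 dpn, among them 76 of the 200 shared tags. DESeq2 called 1 tag, and edgeR without the filter on counts called 28. The p-values measure only the spread between these pools.

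The tags lower at 180 dpn in both breeds that are described below follow, with CATG in capitals. Each can be looked up by its sequence, but whether it matches a single transcript, several or none was not tested. Among shared tags whose mean reached 10 TPM, fall-A to fall-H had the largest ratios in the breed where the ratio was smaller. fall-I to fall-M were the most abundant, and fall-N was among the 5 with the smallest p of the blocked test.
fall-A: CATGccgaagctcaggaattc
fall-B: CATGtgggcagccttcccccc
fall-C: CATGtcatcgatcagctgagc
fall-D: CATGgccttgaattgagagtc
fall-E: CATGggcttctctatcctgtg
fall-F: CATGccccagcctagccaatt
fall-G: CATGatatataactattgtta
fall-H: CATGgcccgtccccttgtact
fall-I: CATGaggattgaggaggctct
fall-J: CATGtaatgtaagaagaaaaa
fall-K: CATGgggtttttattattttt
fall-L: CATGcaatactggatttgtac
fall-M: CATGtcatccggcagaatgcg
fall-N: CATGagagggtgataacattt

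The tags higher at 180 dpn in both breeds are shown in the same way. With the same limit of 10 TPM, rise-A to rise-H had the largest ratios in the breed where the ratio was smaller. rise-I to rise-M were the most abundant, and rise-N to rise-P were added by the blocked test.
rise-A: CATGttggtatgtgtgaaagc
rise-B: CATGgtgctgtgtgagccaag
rise-C: CATGcacacacacatctccag
rise-D: CATGaaataaagcacccaaca
rise-E: CATGtgcttaaatgggcttgt
rise-F: CATGgaaaaagatctgctgga
rise-G: CATGtgggaaactattaaacc
rise-H: CATGtgaatttcatattgaac
rise-I: CATGggagaggaccagctccg
rise-J: CATGaggaagagtgagcgtcg
rise-K: CATGtatgatgactaatcatt
rise-L: CATGggcttcggcttgtttga
rise-M: CATGatgaaacttcggttccc
rise-N: CATGcagcttagcgtggtaac
rise-O: CATGtgggactgattccggct
rise-P: CATGtcgtgtatgaataccta

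**Figure D1:**
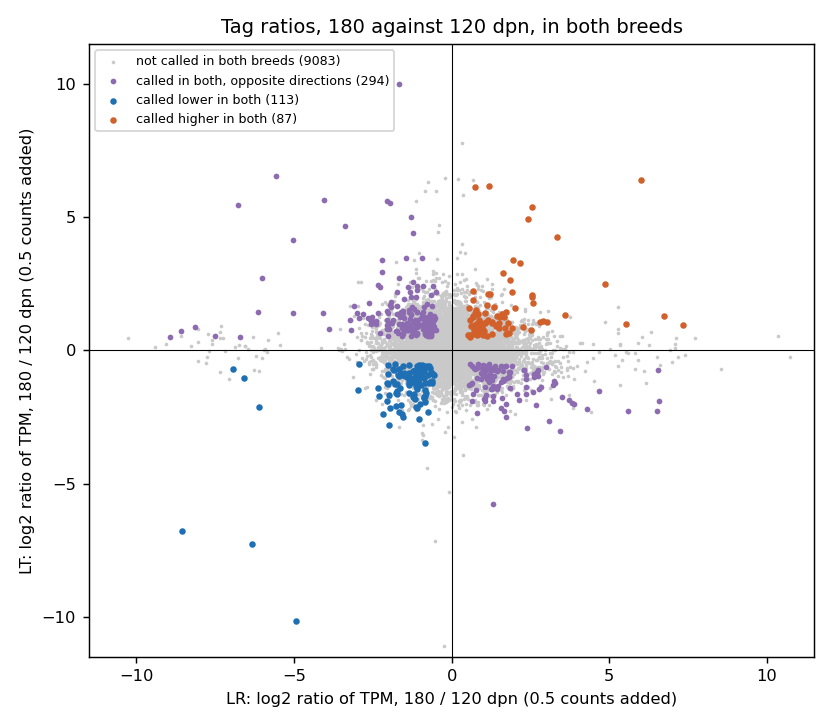
Each point is a tag with 20 or more counts in each breed, or one of the 200 shared tags, placed by its log2 ratio of TPM at 180 over 120 dpn in LR (x axis) and in LT (y axis), with 0.5 counts added to each count. Blue points (113) were called lower and orange points (87) higher in both breeds, purple points (294) were called in opposite directions, and the cloud shows no common slope (Pearson's r -0.068 over 9573 tags).

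Over the 9573 tags the LR and LT log2 ratios were nearly unrelated. Pearson's r was -0.068 and Spearman's rho -0.060, a description across tags that share 4 libraries, and 47.5% of the tags had the same sign in both breeds. Among the 856 tags found in all 4 libraries at a mean of 100 TPM or more, where counting error is small, r was -0.069 and rho -0.116. The same sign was seen in 47.1% of them. Over the 5845 tags found in all 4 libraries at a mean of 10 to 100 TPM, r was -0.130 and rho -0.082. Across all 9573 tags the ratios spread more widely in LR, with an SD of 1.24, than in LT, with 0.86. The median ratio was -0.13 in LR and 0.12 in LT.

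The shared tags were abundant for their number. The median mean level over the 4 libraries was 68.5 TPM for the 113 lower tags and 50.7 TPM for the 87 higher tags, against 13.1 TPM for the 9573 tags, and the binomial test reaches its thresholds more readily at high counts. A mean of 100 TPM or more was reached by 40 of the 113 and by 24 of the 87. The median log2 ratio of the lower tags was -1.19 in LR and -1.17 in LT, and that of the higher tags was 1.17 in LR and 1.07 in LT.

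Summed, the 113 lower tags took a smaller part of the muscle's RNA at 180 dpn. They made up 69900 TPM in LR at 120 dpn and 29727 TPM at 180 dpn, and 42747 and 20692 TPM in LT. This was 6.99% of all clean tags in LR and 4.27% in LT at 120 dpn, and 2.97% and 2.07% at 180 dpn. fall-I alone held 40.0% of the LR sum and 17.6% of the LT sum at 120 dpn. Without it the sums were 41957 and 16794 TPM in LR, and 35213 and 17927 TPM in LT. The 87 higher tags summed to 8008 and 15490 TPM in LR, and to 9791 and 19615 TPM in LT. The direction of these sums between 120 and 180 dpn follows from the choice of the tags, and it is given as a description.

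**Figure D2:**
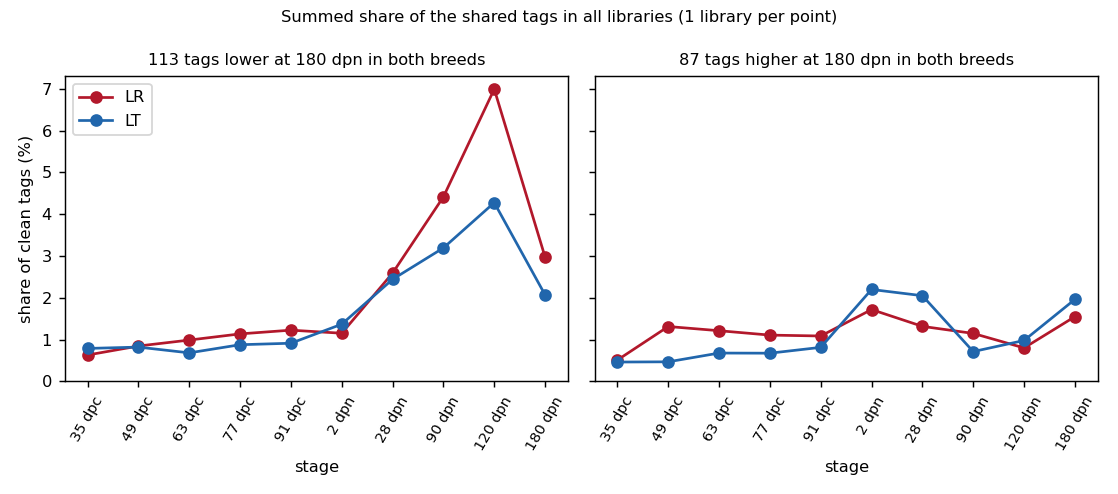
Summed share of clean tags (y axis, %) of the 113 lower (left) and 87 higher tags (right) at the 10 stages (x axis) in LR (red) and LT (blue), 1 library per point. The lower tags climbed after birth to 6.99% in LR and 4.27% in LT at 120 dpn. The higher tags had a peak at 2 dpn, at 1.72% in LR and 2.20% in LT, and were at 1.55% and 1.96% at 180 dpn. The values at 120 and 180 dpn come from the libraries that chose the tags.

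The libraries of the other stages had no part in choosing the tags, and their sums are given as a description. The lower tags were called through a higher level at 120 dpn, so a sum that climbs towards that age can follow from the choice. No sum of other tags of like abundance was set beside it. Before birth, from 35 to 91 days post coitum (dpc), the 113 lower tags held 0.631% to 1.23% of the LR libraries and 0.683% to 0.913% of the LT libraries. At 2 dpn they held 1.15% in LR and 1.37% in LT, at 28 dpn 2.59% and 2.44%, and at 90 dpn 4.41% and 3.19%. Their sum was therefore higher at each later age from 2 to 90 dpn in both breeds. The values at 120 and 180 dpn come from the libraries that chose the tags, and as a description the 180 dpn sums lay between those of 28 and 90 dpn in LR and between those of 2 and 28 dpn in LT. The 87 higher tags held 1.72% in LR and 2.20% in LT at 2 dpn, 1.15% and 0.713% at 90 dpn, and 1.55% and 1.96% at 180 dpn. Individual tags were less uniform: at 90 dpn 44 of the 113 lower tags in LR were above both finishing ages, 35 lay between them and 34 were below both. In LT 24 were above, 54 between and 35 below. These were 38.9% above and 30.1% below in LR, and 21.2% and 31.0% in LT. Over the 9573 tags, 29.7% in LR and 22.3% in LT were above both finishing ages at 90 dpn, and 49.3% and 56.7% were below both. Of the 87 higher tags in LR, 29 were below both (33.3%), 26 between and 32 above both. In LT 50 were below both (57.5%), 30 between and 7 above.

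The most abundant of the shared lower tags, fall-I, was the largest single shift in the muscle's RNA among the 200. Its level was 27943 TPM in LR at 120 dpn and 12933 TPM at 180 dpn, and 7534 and 2766 TPM in LT. This was 2.16-fold lower in LR (95% interval 2.14 to 2.18, counting error only) and 2.72-fold lower in LT (2.66 to 2.79). Both LR levels were above the higher LT level, but breed and the further-CATG share of the LR libraries cannot be told apart in this difference of level. Before birth fall-I had been at 17.5 to 716 TPM in both breeds, and from 2 to 90 dpn at 817 to 7468 TPM.

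fall-L changed to nearly the same extent in both breeds. It stood at 3303 and 978 TPM in LR and at 3995 and 1313 TPM in LT, 3.38-fold (3.25 to 3.51) and 3.04-fold (2.93 to 3.15) lower at 180 dpn. The levels of both breeds were close at both ages, unlike those of fall-I. At 90 dpn it had reached 4979 TPM in LR and 3552 TPM in LT, from 38.0 to 136 TPM before birth, which made it a tag of the growing and early finishing muscle in both breeds.

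fall-J and fall-M were also low before birth and lower at 180 than at 120 dpn in both breeds. Unlike fall-L in LR, both were well below their 120 dpn level at 90 dpn in that breed, at 1734 and 777 TPM. In LT at 90 dpn fall-J was at 1983 TPM and fall-M at 460 TPM. fall-J fell from 7389 to 2963 TPM in LR and from 1928 to 820 TPM in LT, 2.49-fold and 2.35-fold lower. fall-M fell from 3643 to 1373 TPM in LR and from 1643 to 830 TPM in LT, 2.65-fold and 1.98-fold lower. Before birth these tags were at 37.0 to 112 TPM and 8.03 to 57.2 TPM. In the LR libraries each had an abundant companion tag that differed at 1 base and was almost absent in LT. The companion of fall-J (G13A, counted from 1 at the C of CATG, base of the named tag first) had 3048 and 5977 counts in LR at 120 and 180 dpn, and 2 and 0 in LT. The companion of fall-M (G15A) had 6214 and 8893 counts in LR, and 0 and 0 in LT. With the companion added, fall-J was still lower in LR, by a ratio of 0.557, and fall-M by 0.702.

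fall-K differed in its history from the other abundant lower tags. It was at 5548 and 1888 TPM in LR, and at 2522 and 1667 TPM in LT. The LR ratio, 2.94-fold lower (2.86 to 3.02), was larger than the LT ratio of 1.51-fold (1.46 to 1.57), beyond their counting error. In the other 16 libraries it held 1649 to 3612 TPM, so its 120 dpn level in LR was above every other library, and the LT levels lay near the range of earlier stages.

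fall-H, at a lower level, was again a tag of the older muscle. It was at 327 and 66.9 TPM in LR, and at 74.9 and 22.5 TPM in LT, 4.89-fold (4.26 to 5.65) and 3.33-fold (2.53 to 4.44) lower. Before birth it was at 2.24 to 4.89 TPM, and at 90 dpn at 164 TPM in LR and 117 TPM in LT. Its blocked log2 fold change was -2.02, with an adjusted p of 1.00 by edgeR's quasi-likelihood test.

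**Figure D3:**
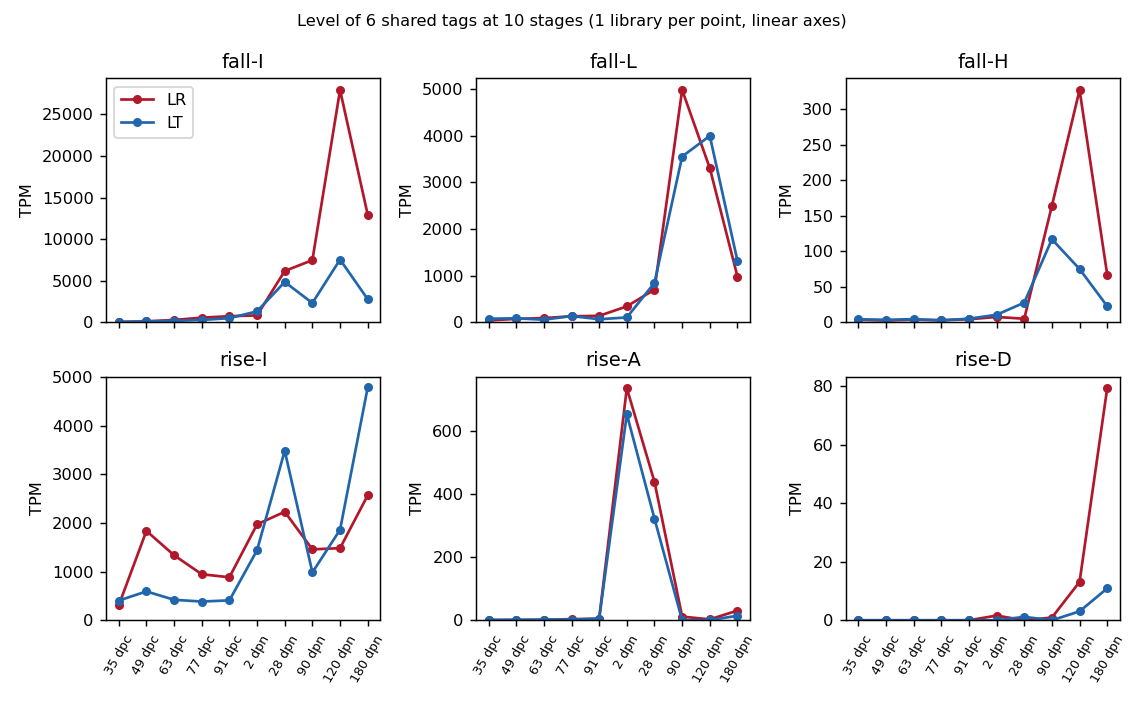
TPM (y axis, linear) of 6 shared tags at the 10 stages (x axis) in LR (red) and LT (blue), 1 library per point. fall-I, fall-L and fall-H were low before birth and lower at 180 than at 120 dpn in both breeds, rise-A had its peak of 736 and 653 TPM at 2 dpn, and rise-D was at 79.3 TPM in LR and 10.9 TPM in LT at 180 dpn.

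Among less abundant lower tags, fall-D, fall-F and fall-G had ratios whose intervals overlapped between the breeds. fall-D had 83 and 19 counts in LR, and 85 and 14 counts in LT, which was 4.61-fold (2.77 to 8.03) and 5.42-fold (3.06 to 10.3) lower at 180 dpn. fall-F had 83 and 21 counts in LR and 43 and 10 in LT, 4.17-fold (2.56 to 7.09) and 3.84-fold (1.90 to 8.57) lower. fall-G had 87 and 27 counts in LR and 45 and 9 in LT, 3.40-fold (2.18 to 5.45) and 4.47-fold (2.16 to 10.4) lower. These intervals are wide. The lower tags fall-C, fall-E and fall-N had ratios further apart, though the intervals of fall-N overlapped too. Before birth fall-F was at 1.89 to 8.12 TPM and fall-G at 0 to 4.04 TPM, whereas fall-D had been at 11.1 to 102 TPM.

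Some tags were absent at 1 age. With 100 or more counts at the other age, 22 tags were absent at 180 dpn and 8 at 120 dpn in LR, and 7 and 3 in LT. These counts are given without the number of tags that reached 100 counts, so they do not compare ages or breeds. fall-A was the only tag with 20 or more counts at 120 dpn in each breed and 0 counts at 180 dpn in both. It had 176 counts in LR and 61 in LT at 120 dpn, at least 61.9-fold and 18.2-fold higher than the 3-count limit of the 180 dpn libraries. rise-N, described with its companion, was the only tag with the reverse pattern. fall-A was found in 4 of the other 16 libraries, the highest being LT at 90 dpn with 13.4 TPM. edgeR gave it an adjusted p of 0.413. fall-C had 14 and 0 counts in LR and 640 and 0 in LT, at least 4.92-fold and 191-fold lower. It was at 217 TPM in LT at 90 dpn and at 0 in LR at that age, so from 90 to 120 dpn it was mainly a tag of the LT libraries. At 2 dpn the order was reversed, with 29.8 TPM in LR and 0.679 TPM in LT.

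The smallest p of the blocked test belonged to fall-B, which was a member of a pair. fall-B had 2258 and 29 counts in LR, and 1125 and 6 counts in LT, 82.1-fold (57.0 to 123) and 168-fold (76.7 to 457) lower at 180 dpn. Its blocked log2 fold change was -6.80 with an adjusted p of 0.160 by edgeR, and it was the 1 tag that DESeq2 called (adjusted p 4.89e-19). The sequence that differs from it at 1 base (C19T) is shown with it. The other named tags whose shared call was lost to a more abundant companion follow, the base that differs being in capitals beside CATG.
fall-B: CATGtgggcagccttcccCcc
fall-B companion: CATGtgggcagccttcccTcc
fall-E: CATGggcttctctaTcctgtg
fall-E companion: CATGggcttctctaCcctgtg
fall-N: CATGagagggtgAtaacattt
fall-N companion: CATGagagggtgGtaacattt
rise-B: CATGgtgcTgtgtgagccaag
rise-B companion: CATGgtgcCgtgtgagccaag
rise-N: CATGcagcttagcgtgGtaac
rise-N companion: CATGcagcttagcgtgAtaac

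The companion of fall-B had 2769 and 14407 counts in LR, and 4872 and 5775 counts in LT. fall-B thus made up 44.9% of the pair in LR and 18.8% in LT at 120 dpn, and 0.201% and 0.104% at 180 dpn. The pair as a whole was 2.72 times its 120 dpn level at 180 dpn in LR and 1.08 times in LT, so the direction of fall-B did not hold for the sum. In the other 16 libraries the level of fall-B ranged from 0 to 1612 TPM, with 1.38 TPM in LR and 1110 TPM in LT at 28 dpn. What the members of the pair represent was not tested.

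Adding up tags that differ at 1 base removed the shared call of 12 of the 113 lower and of 12 of the 87 higher tags. fall-E had 32 and 0 counts in LR and 100 and 20 in LT, at least 11.2-fold and 4.47-fold (2.74 to 7.63) lower, while its companion (T15C) had 203 and 444 in LR and 45 and 71 in LT. fall-N had 58 and 15 counts in LR and 27 and 3 in LT, 4.08-fold (2.28 to 7.75) and 8.04-fold (2.47 to 41.4) lower, while its companion (A13G) had 22 and 68 in LR and 21 and 26 in LT. In both pairs the share of the named tag was smaller at 180 dpn in both breeds. rise-B had 46 and 264 counts in LR and 0 and 13 in LT, against 338 and 186 in LR and 46 and 31 in LT for its companion (T9C). The rise-B pair was nearly level, with ratios of 1.11 in LR and 1.07 in LT. rise-N had 0 and 33 counts in LR and 0 and 37 in LT, and its companion (G17A) had 362 and 180 in LR and 64 and 34 in LT. The rise-N pair was at a ratio of 0.558 in LR and 1.24 in LT.

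**Figure D4:**
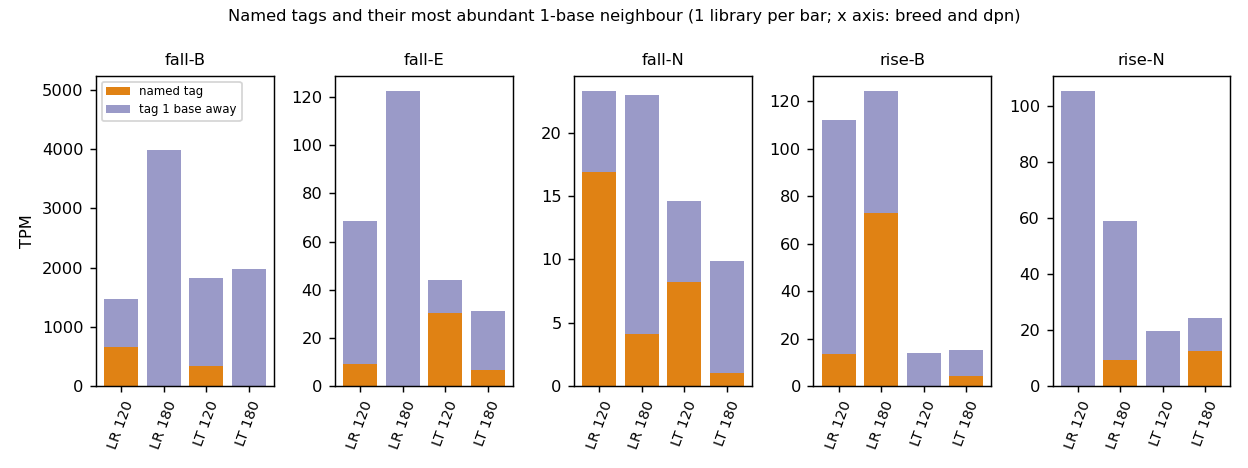
TPM (y axis, from 0) of 5 named tags (orange) stacked with their most abundant companion at 1 base (violet), 1 bar per library, labelled by breed and dpn. For fall-B the orange part shrank from 44.9% to 0.201% of the pair in LR and from 18.8% to 0.104% in LT, while the whole bar did not become smaller.

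Among the tags higher at 180 dpn, rise-I was the most abundant. Its level was 1483 TPM in LR at 120 dpn and 2570 TPM at 180 dpn, and 1861 and 4789 TPM in LT. This was 1.73-fold (1.67 to 1.79) higher in LR and 2.57-fold (2.50 to 2.65) higher in LT. Its LT level at 180 dpn was the highest of the 20 libraries, and the earlier LT maximum was 3486 TPM at 28 dpn.

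rise-J and rise-K were likewise higher in both breeds. rise-J was at 1046 and 1673 TPM in LR and at 681 and 1271 TPM in LT, 1.60-fold (1.53 to 1.67) and 1.87-fold (1.77 to 1.97) higher. rise-K was at 1112 and 2000 TPM in LR and at 235 and 598 TPM in LT, 1.80-fold (1.73 to 1.87) and 2.55-fold (2.34 to 2.77) higher. Before birth rise-J was at 35.2 to 454 TPM, below all finishing values. rise-K was at 19.1 to 645 TPM, the highest being LT at 91 dpc, above both LT finishing values. rise-K was at 1646 TPM in LT at 28 dpn, but at 0 counts in the LR library of that age.

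rise-L, by contrast, was also abundant before birth. It was at 525 and 913 TPM in LR and at 578 and 865 TPM in LT, 1.74-fold (1.64 to 1.84) and 1.50-fold (1.41 to 1.59) higher. Before birth it was at 637 to 2082 TPM. The values at 180 dpn lay inside this range, and the LT call was lost with TMM scaling (log2 ratio 0.46) and with GC centring (0.45).

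rise-M shared a direction at very different levels. It had 36 and 101 counts in LR, 10.5 and 27.9 TPM, and 2774 and 4624 counts in LT, 845 and 1577 TPM. The ratios were 2.66-fold (1.80 to 4.01) in LR and 1.87-fold (1.78 to 1.96) in LT. In the earlier LR libraries it was at 300.3 to 1423 TPM, so the finishing LR libraries stood below all of them. These are the libraries with few further-CATG tags, so that age and library cannot be told apart in this low LR level. Nor can breed and library be told apart in its distance from LT at the finishing ages.

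The tag rise-A returned at 180 dpn after an early postnatal peak. It had 10 and 111 counts in LR, and 2 and 42 counts in LT, 10.5-fold (5.51 to 22.6) and 23.5-fold (6.11 to 200.4) higher at 180 dpn. Its levels of 30.7 TPM in LR and 14.3 TPM in LT were small beside the 736 and 653 TPM at 2 dpn and the 439 and 322 TPM at 28 dpn. At 90 dpn it was at 11.6 TPM in LR and 0 in LT. Before birth it was at 0.896 to 5.26 TPM, so high levels were limited to the weeks after birth among the libraries sequenced. Its blocked log2 fold change was 3.79, with an adjusted p of 1.00 by edgeR.

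rise-D was nearly specific to finishing muscle in these libraries. It had 45 and 287 counts in LR and 10 and 32 counts in LT, 6.05-fold (4.40 to 8.48) and 3.58-fold (1.72 to 8.17) higher at 180 dpn. It was found in 3 of the other 16 libraries, at 1.60 TPM or less. In LR it was at 13.1 and 79.3 TPM, and in LT at 3.05 and 10.9 TPM. The LR libraries of these ages held few further-CATG tags, so age and library cannot be told apart in the LR level of rise-D. Its sequence holds AATAAA, the commonest polyadenylation signal, which means only that these letters lie in the tag. AATAAA or ATTAAA stood in 6 of the 87 higher tags (6.90%) and in 3 of the 113 lower tags (2.65%), against 4.67% of the 9573 tags. A companion that differs at the last base (A21G) had 9 and 253 counts in LR, and 13 and 11 in LT, and with tags at 1 base merged the LT ratio of rise-D no longer passed. The LT call was also lost with TMM scaling (log2 ratio 1.67 against 1.79) and with GC centring (1.63).

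rise-C, rise-E and rise-F were more abundant in LT than in LR at 180 dpn, while rise-G was close, at 61.4 TPM in LR and 69.2 TPM in LT. As for fall-I, breed and the further-CATG share of the LR libraries cannot be told apart in these levels. rise-F had 34 and 121 counts in LR and 310 and 749 in LT, 3.37-fold (2.29 to 5.09) and 2.70-fold (2.37 to 3.10) higher. rise-E had 7 and 31 counts in LR and 62 and 169 in LT, 4.20-fold (1.81 to 11.3) and 3.05-fold (2.27 to 4.15) higher. rise-C had 3 and 21 counts in LR and 24 and 88 in LT, with ratios of 6.64 (1.98 to 34.8) and 4.10 (2.59 to 6.74). The intervals of the breeds overlapped for all of them. rise-G was the most even, with 69 and 222 counts in LR and 87 and 203 in LT, 3.05-fold (2.32 to 4.06) and 2.61-fold (2.02 to 3.40) higher.

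The remaining higher tags had few counts at 120 dpn. rise-H had 25 and 68 counts in LR and 16 and 45 in LT, 2.58-fold (1.61 to 4.26) and 3.15-fold (1.75 to 5.97) higher. rise-O had 11 and 54 counts in LR and 2 and 21 in LT, with ratios of 4.65 (2.41 to 9.87) and 11.8 (2.87 to 103). rise-P had 6 and 26 counts in LR and 2 and 23 in LT, with ratios of 4.11 (1.65 to 12.2) and 12.9 (3.18 to 113). With tags at 1 base merged, the LR ratio of rise-E (log2 0.22) and the LT ratio of rise-O (log2 1.30) no longer passed. The LR call of rise-P was lost at a p below 0.005 and an FDR below 0.01. The wide intervals show that the size of the LT change was hardly determined at this depth. All of these were found before birth, and rise-H had been as high as 58.6 TPM.

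**Figure D5:**
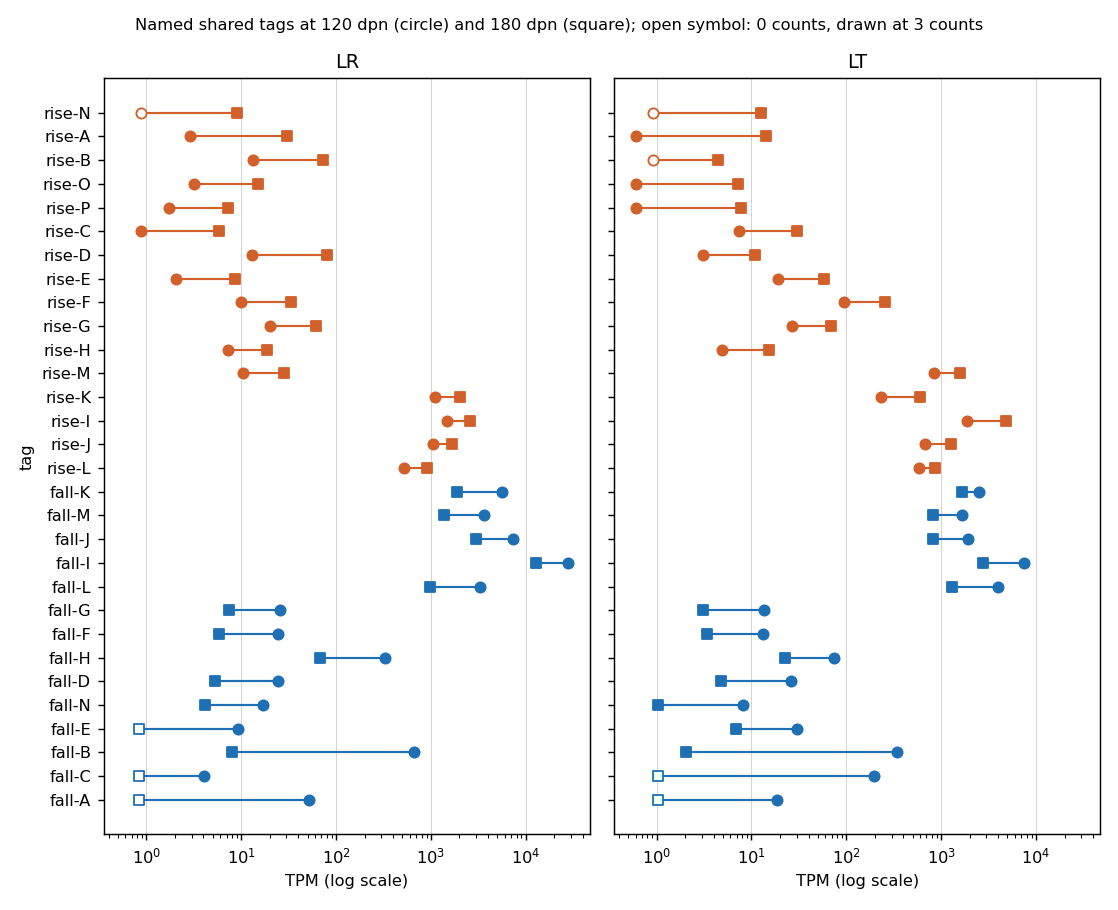
TPM (x axis, log scale) of the 30 shared named tags (y axis) at 120 dpn (circles) and 180 dpn (squares) in LR (left) and LT (right), with blue for lower and orange for higher at 180 dpn. An open symbol stands for 0 counts and is drawn at the level of 3 counts. fall-I was the most abundant in LR, at 27943 TPM. The longest lines were those of fall-B and fall-A in LR, and of fall-C and fall-B in LT.

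Composition of the tag differed little between the groups. The median share of G and C among the 17 bases was 47.1% in both shared groups and 41.2% over the 9573 tags. In LR the median log2 ratio was -0.34 for tags with 2 such bases or fewer, -0.03 for those with 10 and -0.40 for those with 14 or more. In LT it was 0.16, 0.10 and -0.17. Of the named tags, rise-D and rise-L lost their LT call when the ratios were centred by GC content.

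The tags that went in opposite directions outnumbered those shared, at 114 higher in LR and lower in LT and 199 lower in LR and higher in LT. With the same limit of 10 TPM, those with the largest ratios in the breed where the ratio was smaller are shown.
LRup-A: CATGtgaaaagaaaaaaaaaa
LRup-B: CATGtttaaaacttcaacaaa
LRup-C: CATGgtagttgtttcttttgt
LTup-A: CATGatagaagactttgtgac
LTup-B: CATGtggcaaaatatggtttg
LTup-C: CATGggatatgtcgtgtatat

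LTup-C had 503 and 32 counts in LR and 6 and 290 in LT, 16.6-fold (11.6 to 24.5) lower and 54.1-fold (24.6 to 149) higher at 180 dpn. LTup-B had 77 and 2 counts in LR and 13 and 215 in LT, with a ratio 40.6-fold lower (10.9 to 341) in LR and 18.5-fold higher (10.6 to 35.3) in LT. LTup-A had 51 and 0 counts in LR and 7 and 297 in LT, at least 17.9-fold lower and 47.5-fold higher. For LTup-B and LTup-C the other 16 libraries were at 9.41 to 65.4 TPM and 20.2 to 86.7 TPM. LR at 180 dpn and LT at 120 dpn lay below these ranges for both tags. LT at 180 dpn lay above them, at 73.3 and 98.9 TPM, as did LR at 120 dpn for LTup-C, at 146.6 TPM.

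LRup-A had 69 and 798 counts in LR and 22 and 2 in LT, 11.0-fold (8.57 to 14.2) higher and 9.83-fold (2.42 to 86.2) lower. LRup-B had 36 and 203 counts in LR and 29 and 3 in LT, 5.35-fold higher and 8.64-fold (2.68 to 44.3) lower. LRup-C had 0 and 48 counts in LR and 290 and 53 in LT, at least 15.2-fold higher and 4.89-fold lower. Its companion at 1 base (T9C) had 30 and 78 counts in LR and 190 and 257 in LT. The pair was at a ratio of 3.98 in LR and only 0.723 in LT, where the share of LRup-C went from 60.4% to 17.1%. With its companion (G11A) added, LRup-A was at a ratio of 10.7 in LR and 0.316 in LT. With 1 library for each breed and age, a difference between the breeds in the change could not be tested.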

How the data were processed

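Longissimus muscle was profiled by DGE in 20 pools of 3 pigs, 4 of them used for the comparison. The authors removed adaptor, empty, low-quality and single-copy tags and deposited, for every distinct clean tag, a raw count and its TPM, the count per 1000000 clean tags of the library. TPM was recomputed here from the deposited count and the library sum, an absent tag being 0. The alignments named in the submitters' processing notes (Bowtie 0.12.3) were not used here, and tags were not matched to transcripts, so that the planned gene lists were not applied.

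Libraries of a breed were compared by a 2-sided exact binomial test per tag given both counts (p below 0.009, FDR below 0.02, log2 ratio beyond 0.5 in size, a TPM of 0 being set to 0.01). Printed log2 ratios had 0.5 counts added, folds are ratios of TPM with exact 95% intervals, and against 0 counts a fold is a lower bound from 3 counts in that library. PCR reads are not independent molecules, so intervals and limits cover counting error only. The blocked test used edgeR 4.0.16 (R 4.3.3) with breed as a term, library totals as scale, 1 residual degree of freedom, tags with 20 or more counts over both ages in each breed, and Benjamini-Hochberg adjusted p below 0.05. The tests were tested on simulated data.

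Tags were named by rule: per direction, the 8 shared tags of 10 TPM or more with the largest smaller ratio, the 5 most abundant shared tags, and the 5 smallest blocked p among tags changed alike in both breeds. For opposite directions, the 3 of 10 TPM or more with the largest smaller ratio were taken per pattern. A tag at 1 base from a tag at least 10 times as abundant was not named. The members, lists and thresholds were chosen with earlier results of these data known. Alternatives were DESeq2 1.42.0, TMM, other filters and thresholds, GC centring, an assumed coefficient of variation of 0.4, merging of tags at 1 base, other sets of libraries and leaving out each library. Those limited to tags found in all 4 libraries, or without tags at 1 base from a tag at least 10 times as abundant, were added after seeing the data.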

Additional observations from a re-analysis of the deposited data

Results flagged for a closer look

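In 6 named tags every library of a breed moved opposite to the other breed between 120 and 180 dpn, and the difference was not tested, since each breed had 1 library per age. The LT log2 ratio minus the LR log2 ratio was -6.45 for LRup-A, -5.32 for LRup-B and -8.80 for LRup-C. It was 12.24 for LTup-A, 9.19 for LTup-B and 9.67 for LTup-C. These values have 0.5 counts added, and those of LRup-C and LTup-A, each with 0 counts in an LR library, depend on that addition and are no bound. Over all tags called in both breeds, 114 were higher at 180 dpn in LR and lower in LT, and 199 were lower in LR and higher in LT. With TMM scaling these counts were 171 and 135, and with centring by GC content 170 and 135, so the order of both patterns depended on the scaling.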

How the results depend on the processing

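The breed-blocked edgeR test called 0 tags, and 0 also with TMM scaling, edgeR's own filter, all 20 libraries, the 10 postnatal libraries, tags at 1 base merged or tags with a further CATG left out. DESeq2 called 1 tag, fall-B, and edgeR without a filter called 28, of which 23 were found in 1 breed only and 3 had 20 counts in each breed. Over the alternatives the adjusted p ran from 4.89e-19 to 1.00 for fall-B, from 5.83e-08 to 1.00 for fall-A and from 0.00356 to 1.00 for rise-N. With no replicate block, breed being left out of the model, 0 tags were called and 97 had an unadjusted p below 0.05, against 217 with it. Leaving out each library from the fit of all libraries, the lone sample being assumed to vary like the other groups, gave 0 to 0 calls and 129 to 629 tags at an unadjusted p below 0.05.

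The counts of binomial calls depended on the assumed spread. With a coefficient of variation of 0.4 for biological spread, LR had 112 calls, LT 25, and 0 tags were shared higher and 1, fall-B, shared lower. With 20 counts or more in each breed, LR had 3446 calls and 139 tags were shared higher, fewer tags being tested. At an absolute log2 ratio above 1, 38 tags were shared higher and 52 lower. Tags higher at 180 dpn were 60.2% of the LR calls and 68.7% of the LT calls, but 68.1% and 56.1% with TMM scaling and 68.8% and 56.3% with centring by GC content. With 20 counts or more in each breed they were 46.6% of the LR calls.

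Of the 5 named tags that joined a more abundant companion when tags at 1 base were merged, some took the opposite direction in the log2 ratio of the merged sum: fall-B went to 1.47 in LR, 0.11 in LT and 0.79 blocked, fall-E to 0.85 in LR, and rise-N to -0.86 in LR and -0.29 blocked. The other ratios of these tags, those of rise-B and fall-N among them, kept their direction but not the shared call. With TMM scaling or GC centring the LT calls of rise-D (log2 ratio 1.67 and 1.63) and rise-L (0.46 and 0.45) were lost. At a p below 0.005 and an FDR below 0.01 the LT call of rise-D and the LR call of rise-P were lost.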
